A study of Mus musculus with 16 samples.

Results

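The mitochondrial chromosome of the mouse holds 37 annotated genes, and their transcripts were followed in 16 hearts. The genes were taken from the count table by the symbol prefix mt-, which finds 37 of its 55573 genes: 13 protein-coding genes, 2 ribosomal RNA (rRNA) genes and 22 transfer RNA (tRNA) genes. All 37 passed the filter on low counts, so all were tested. Ventricular RNA came from male mice in 4 groups of 4, and every mouse carried homozygous floxed Trbp alleles and the aMHC-MerCreMer transgene, a Cre recombinase that the alpha-MHC promoter drives in cardiomyocytes and that works once tamoxifen is given. Daily tamoxifen (30 mg/kg, 5 days, begun at the age of 4 weeks) made the Trbp-cKO mice, since it deletes Trbp (gene symbol Tarbp2, a double-stranded RNA-binding protein that acts beside Dicer in microRNA production), and control mice were given corn oil instead. Mice of either kind then underwent sham surgery or transverse aortic constriction (TAC), a narrowing of the aorta that loads the left ventricle with pressure, and hearts were collected about 8 weeks later at 16 weeks of age. Deletion, Cre activity and tamoxifen thus coincide in the Trbp-cKO groups and cannot be told apart here. Tarbp2 itself averaged 32.2 ± 1.15 CPM (counts scaled to the heart's total, after edgeR's TMM adjustment of that total, mean ± SD, n = 4) in the sham and 27.0 ± 4.74 in the TAC hearts of control mice, and 9.53 ± 1.31 and 8.62 ± 1.10 in those of Trbp-cKO mice, with no overlap between control and Trbp-cKO hearts. Total counts per heart lay between 45166994 and 68274222.

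Both strands of the mitochondrial chromosome are transcribed into long precursors, and the tRNAs that sit between the other genes are cut out of them, which frees the rRNAs and messenger RNAs (mRNAs). The 13 proteins are subunits of the respiratory chain complexes and of the ATP synthase, the machinery that makes most of the ATP of the heart, while all other subunits and every factor that copies, transcribes and processes the chromosome come from nuclear genes. Most mitochondrial mRNAs carry a short poly(A) tail, the rRNAs carry only a few added adenosines and mature tRNAs end in an added CCA. The libraries went through 2 rounds of oligo(dT) selection, so the counts of rRNA and tRNA genes describe what passed that selection, including tRNA sequence inside longer transcripts, and not the amount of mature rRNA or tRNA in the tissue. In RNA from a whole ventricle, fewer cells of a type and less RNA per cell cannot be told apart.

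Some genes of the chromosome overlap, and their sequences show where. Sequences and positions are those of GENCODE release M21 on GRCm38. The reading frames of mt-Atp8 and mt-Atp6, both subunits of the ATP synthase, share 43 bases (chrM:7927-7969, + strand), so a read from this stretch belongs to both genes. The shared stretch begins with the start codon of mt-Atp6 and ends with the stop codon of mt-Atp8, both in capitals.

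mt-Atp8 and mt-Atp6 overlap: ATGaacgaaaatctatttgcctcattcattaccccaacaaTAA

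In the same way mt-Nd4l and mt-Nd4, subunits of complex I, share 7 bases (chrM:10167-10173, + strand). In 3 of the 13 protein-coding genes the annotated length is no multiple of 3: the last codon is a lone T, which becomes a stop codon only when the poly(A) tail is added. The last 24 bases of these genes are printed with that T in capitals, since in them the tail that the selection captures also completes the reading frame.

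mt-Co3 (complex IV, chrM:9367-9390, + strand): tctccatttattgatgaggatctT

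mt-Nd4 (complex I, chrM:11521-11544, + strand): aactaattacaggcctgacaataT

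mt-Cytb (complex III, chrM:15265-15288, + strand): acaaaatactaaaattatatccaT

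Between mt-Nd1 and mt-Nd2 lie the tRNA genes mt-Ti (isoleucine), mt-Tq (glutamine, opposite strand) and mt-Tm (methionine), all called lower for the deletion after TAC as described below. mt-Ti overlaps the end of mt-Nd1 by 2 bases and mt-Tq by 3 bases. Capitals mark the anticodon, found as the middle of a loop of 7 bases closed by 5 pairs of bases that can pair.

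mt-Ti (chrM:3706-3774, + strand): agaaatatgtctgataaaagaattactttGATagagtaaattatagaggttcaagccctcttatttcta

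mt-Tq (chrM:3772-3842, - strand): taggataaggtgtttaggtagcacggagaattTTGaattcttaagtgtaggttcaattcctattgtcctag

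mt-Tm (chrM:3845-3913, + strand): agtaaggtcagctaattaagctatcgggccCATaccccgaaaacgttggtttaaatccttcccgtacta

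Of the 37 genes, 28 read along the + strand of the build and 9 along the other: mt-Nd6 and 8 tRNA genes. Whether the libraries kept the strand is not given in the sources used here. Without strand, reads of these 9 genes cannot be told apart from precursor RNA of the opposite strand.

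The 37 genes held 24.2% to 25.5% of all counts on average in the sham groups, and the hearts of the TAC groups were spread more widely. In control sham hearts their share of counts was 25.3, 25.0, 26.3 and 25.2% in replicates 1 to 4 (25.5 ± 0.554%, SD). In Trbp-cKO sham hearts it was 25.1, 22.7, 25.7 and 23.5% (24.2 ± 1.39%). In control TAC hearts it was 38.2, 38.8, 25.2 and 21.7% (30.96 ± 8.79%). Replicates 1 and 2 of control TAC thus lay far above every sham heart, replicate 3 lay within the range of control sham and replicate 4 below it. In Trbp-cKO TAC hearts the share was 18.2, 20.3, 19.0 and 24.9% (20.6 ± 3.03%), with replicates 1 to 3 below every other heart and replicate 4 within the range of the sham hearts. The highest share in control TAC was 1.79 times the lowest, against 1.05 times in control sham, 1.13 times in Trbp-cKO sham hearts and 1.37 times in Trbp-cKO TAC. Group means differed by 5.50 percentage points between control TAC and control sham and by -1.24 between Trbp-cKO sham and control sham, and each of these differences was smaller than the larger SD of its pair of groups. Between Trbp-cKO TAC and control TAC the difference was -10.4 percentage points against an SD of 8.79 in control TAC, and the groups overlapped. Between Trbp-cKO TAC and Trbp-cKO sham it was -3.62 against an SD of 3.03, again with overlap. Without control TAC replicates 1 and 2, an alternative added after the data were seen, the mean of control TAC lay below that of control sham, with a difference of -2.0, and Trbp-cKO TAC differed from control TAC by -2.86 percentage points.

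The classes were also summed one by one. The 13 protein-coding genes held 35.4, 35.8, 22.7 and 20.3% of counts in control TAC hearts. The 2 rRNA genes held 2.40, 2.67, 2.37 and 1.27% there, so that for rRNA replicates 1 to 3 lay above every control sham heart and only replicate 4 below. The rRNA share of control sham hearts was 1.72, 1.81, 2.15 and 1.90%, that of Trbp-cKO sham hearts 1.57, 1.19, 1.98 and 1.48% and that of Trbp-cKO TAC hearts 1.05, 1.19, 1.25 and 1.20%, and each Trbp-cKO TAC heart lay below each control TAC heart, by as little as 1.25% against 1.27%. The 22 tRNA genes together held between 0.141% and 0.365% in all hearts. mt-Co1 had the highest CPM of all genes in every heart, and 10 to 13 of the 20 highest genes of a heart were mitochondrial.

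**Figure D1:**
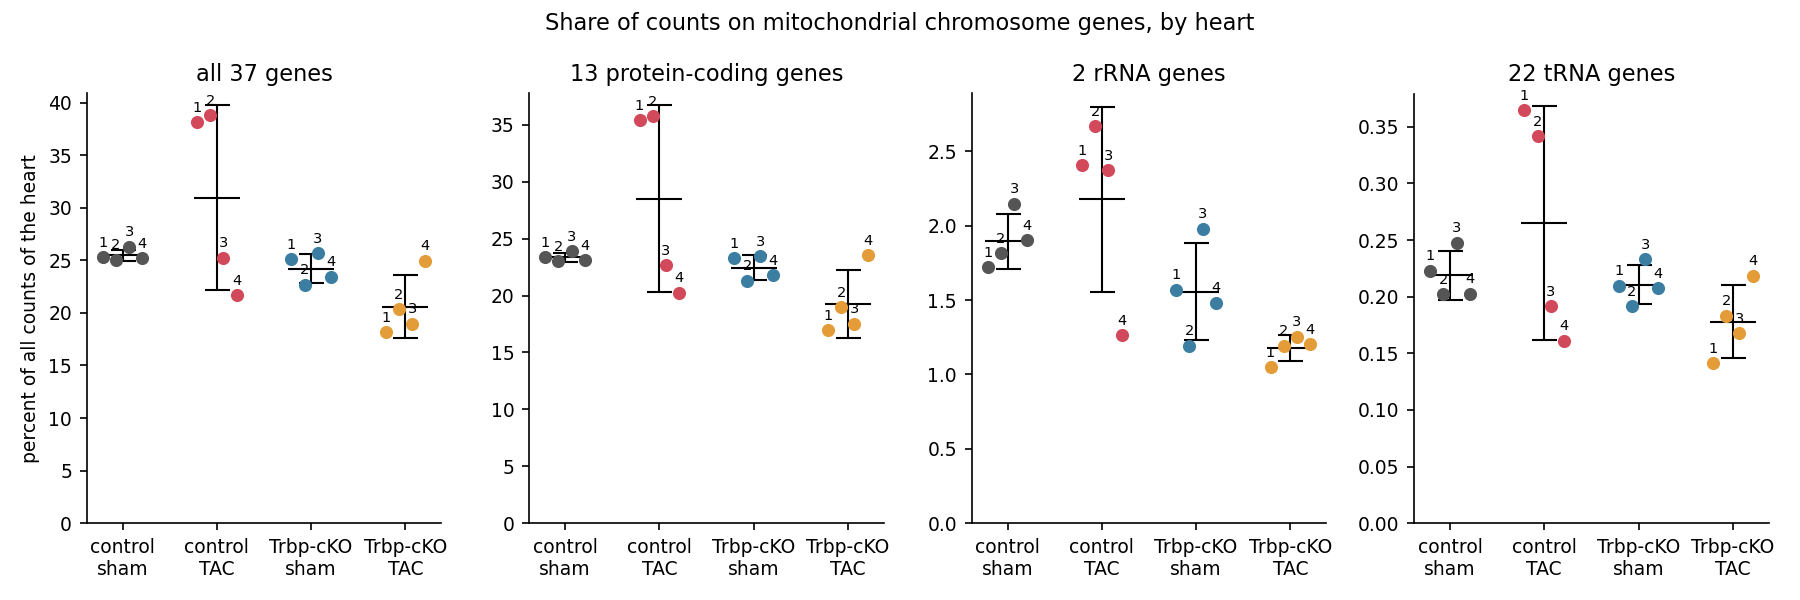
Share of all counts of a heart, in percent, held by all 37 mitochondrial genes and by each class, with 1 point per heart labelled with its replicate number and the mean ± SD of each group of 4 in black. Control TAC replicates 1 and 2 stand at 38.2% and 38.8% of counts in the first panel, while the other 14 hearts lie between 18.2% and 26.3%.

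The spread within control TAC reached all classes of genes. The median SD of log2 CPM over the 37 genes was 0.61 in control TAC, against 0.17 in control sham, 0.15 in Trbp-cKO sham hearts and 0.27 in Trbp-cKO TAC hearts. Over all 19955 genes tested it was 0.34, 0.16, 0.22 and 0.28 in the same order, so the mitochondrial genes varied more than the median gene in control TAC and about as much in control sham. Within control TAC the SD of single genes ran from 0.38 for mt-Co3 to 1.17 for mt-Tv, the valine tRNA gene between the rRNA genes. mt-Tv, mt-Td (aspartate), mt-Tk (lysine) and mt-Tr (arginine) had the 4 largest SDs. mt-Tv stood at 7.69, 14.2, 7.47 and 2.05 CPM and mt-Tr at 14.9, 29.3, 15.0 and 4.67 CPM in control TAC replicates 1 to 4. In replicate 2 both were far above replicate 1, although the share of the whole chromosome was 38.8% in replicate 2 and 38.2% in replicate 1. mt-Td (8.47, 19.4, 12.9 and 3.30 CPM) and mt-Tk (5.98, 9.22, 5.76 and 1.79 CPM) had the same order of hearts in that replicate 2 was highest and replicate 4 lowest.

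**Figure D2:**
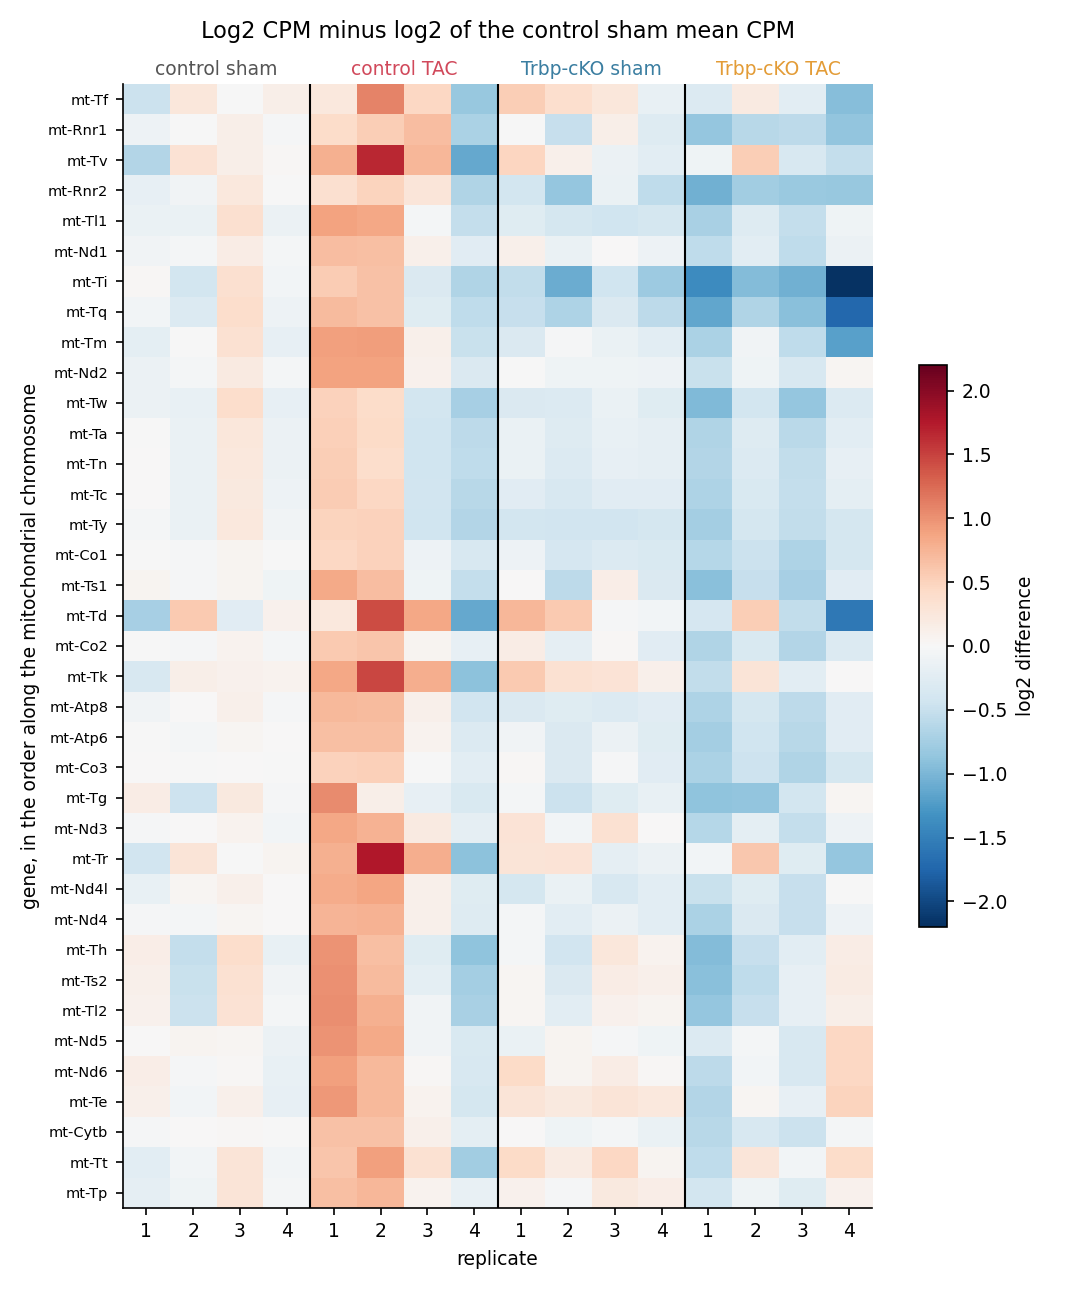
Log2 CPM of each of the 37 genes in each of the 16 hearts, as the difference from the log2 of the gene's mean CPM in control sham hearts, with genes in their order along the chromosome. Control TAC replicates 1 and 2 lie above 0 in every row, replicate 4 lies below 0 in every row, and mt-Ti and mt-Tq in Trbp-cKO TAC replicate 4 are the lowest values.

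Levels were compared between genes per length. Among the 13 protein-coding genes mt-Co1, the catalytic subunit of complex IV, was highest with a mean of 57221 CPM per kilobase in control sham hearts, and mt-Nd3, a small subunit of complex I, was lowest with 4924. These 2 genes were also the highest and the lowest in the other 3 groups. mt-Rnr2, the rRNA of the large ribosomal subunit, stood at 9490 and mt-Rnr1, the rRNA of the small subunit, at 4995 CPM per kilobase in control sham. The 22 tRNA genes ranged from 25.4 for mt-Tf (phenylalanine) to 7740 for mt-Ts1 (serine), with a median of 764. Against the nearest rRNA or protein-coding gene, a tRNA gene's count per base had a median over hearts of 0.13% for mt-Tg (glycine) to 70.8% for mt-Te (glutamate), and of 3.71% for the median tRNA gene. 5 of 22 tRNA genes lay under 1%, and counts of single tRNA genes in a heart ran from 55 to 52613. The tRNA genes, 59 to 75 bases long, are shorter than a sequencing read of these libraries, so a read counted for one of them can also hold sequence of its neighbors.

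Among tRNA genes mt-Ts1, mt-Te and mt-Tl1 (leucine) had the highest mean CPM. mt-Ts1 stood at 558, 522, 558 and 498 CPM in control sham and 957, 856, 502 and 372 CPM in control TAC hearts. With Trbp deleted, mt-Ts1 stood at 536, 359, 588 and 430.1 CPM after sham surgery and 282, 377, 320.1 and 447 CPM after TAC. Control TAC replicates 1 and 2 were the highest of all hearts, and the 2 TAC groups overlapped. mt-Te, which lies beside mt-Nd6 on the same strand, stood at 407, 357, 403 and 331 CPM in control sham and 722, 611, 397 and 286 CPM in control TAC hearts. With Trbp deleted it stood at 457, 437, 456 and 439 CPM after sham surgery and 239.7, 387, 330.3 and 527 CPM after TAC. mt-Te was the 1 gene of the 37 with every Trbp-cKO sham heart above every control sham heart. mt-Tl1 stood at 213, 212, 301 and 214 CPM in control sham and 434, 422, 227 and 163 CPM in control TAC hearts. With Trbp deleted it stood at 195, 181, 174 and 179.9 CPM after sham surgery and 143, 193, 164 and 220.3 CPM after TAC. Within control sham, replicate 3 stood apart for mt-Tl1, and it was also the highest of its group for mt-Co1. At the other end mt-Tf, at the start of the chromosome and the lowest of the 37 by mean CPM, stood at 1.24, 2.06, 1.72 and 1.89 CPM in control sham and 2.04, 3.66, 2.37 and 0.965 CPM in control TAC hearts. With Trbp deleted, mt-Tf stood at 2.50, 2.24, 2.06 and 1.54 CPM after sham surgery and 1.40, 1.98, 1.47 and 0.905 CPM after TAC, and all 4 groups overlapped.

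The first comparison asked what TAC did in control hearts. The log2 fold changes of all 37 genes lay above 0, from 0.04 to 0.88 with a median of 0.35, beside a median of 0.02 over all genes. None was called. A gene was called where edgeR's quasi-likelihood test gave a Benjamini-Hochberg adjusted p no higher than 0.05 and the log2 fold change was 0.8 or more in size. Of all 19955 genes tested 3.75% were called in either direction, and none of the 37 was called by DESeq2 or by edgeR's exact test either. At an unadjusted p under 0.05 the count was 3 of 37, against 26.6% of all genes: mt-Tk, mt-Nd3 and mt-Tr, with adjusted p of 0.157, 0.175 and 0.175. The hearts of the groups overlapped for all 37 genes, against no overlap for 17.4% of all genes in either direction. The direction and the absence of calls rested on few control TAC hearts. With replicate 1 left out, 29 genes lay above 0, and with replicate 2 left out, 31 genes did. Without both the log2 fold changes of 31 of 37 genes lay below 0, with a median of -0.13, and none was called. Without replicate 4 all 37 lay above 0 and 3 of 37 were called higher, mt-Tv, mt-Tk and mt-Tr, against 5.08% of all genes in that fit.

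The second comparison asked what the deletion did after sham surgery. 26 of 37 genes lay below 0 and 11 above, from -0.70 to 0.34 with a median of -0.13, beside 0.01 over all genes, while scaling by library size only, which moved the median of all genes to 0.11, put 19 below 0 and 18 above. None was called, against 0.967% of all genes, and none by DESeq2 or the exact test. 1 of 37 genes, mt-Ti, had an unadjusted p under 0.05, against 13.7% of all genes, with a log2 fold change of -0.70 ± 0.30 (log2 ± SE) and an adjusted p of 0.307 in edgeR's quasi-likelihood test. This count depends on the fit: it was 11 of 37 in a fit of only these 2 groups, against 22.3% of all genes, and 10 of 37 with edgeR's exact test, against 20.5%. The median of -0.13 depended on single hearts. It was -0.065 without control sham replicate 3 and -0.071 without Trbp-cKO sham replicate 2, with 23 and 24 genes below 0. For 11 of 37 genes every Trbp-cKO sham heart lay below every control sham heart, while 6.96% of all genes had this pattern: mt-Co1, mt-Atp8, mt-Atp6, mt-Nd4 and the tRNA genes mt-Tl1, mt-Ti, mt-Tq, mt-Ta, mt-Tn, mt-Tc and mt-Ty. The reverse, every Trbp-cKO sham heart above, held for mt-Te alone and for 7.74% of all genes. mt-Co1 showed the pattern at 87392, 86745, 91880.5 and 87610 CPM in control and 82149, 68365, 71807 and 70223 CPM in Trbp-cKO hearts, with a log2 fold change of -0.27 ± 0.20 (log2 ± SE) and an adjusted p of 0.623 in edgeR's test.

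The next comparison, of the deletion after TAC, was the 1 comparison with calls among the 37 genes. All 37 log2 fold changes lay below 0, from -1.49 to -0.33 with a median of -0.74, beside -0.01 over all genes. 8 genes fell past both thresholds: mt-Rnr1, mt-Rnr2, mt-Ti, mt-Tq, mt-Tm, mt-Atp8, mt-Atp6 and mt-Nd3. Of all genes tested 0.912% were called lower. 11 of 37 had an adjusted p of at most 0.05 and 28 of 37 an unadjusted p under 0.05. Of all genes 5.53% passed the adjusted and 21.4% the unadjusted threshold in either direction. For 6 of 37 genes every Trbp-cKO TAC heart lay below every control TAC heart (mt-Rnr2, mt-Ti, mt-Tq, mt-Co1, mt-Co2 and mt-Co3), against 3.93% of all genes. The calls depended on single hearts, among them control TAC replicates 1 and 2, the hearts with the high share. Without both, none of the 37 was called, while 1.14% of all genes were called lower, a larger share than with these hearts. In that fit 10 of 37 had an unadjusted p under 0.05, against 17.8% of all genes, 26 genes lay below 0 and 11 above, and the median was -0.25. The log2 fold changes of mt-Rnr1 and mt-Ti were then -0.88 and -0.86, still past 0.8 in size but with adjusted p of 0.0946 and 0.109 in edgeR's test, and those of the other 6 genes lay between -0.75 and -0.35. Without control TAC replicate 1 alone only mt-Ti was called (0.443% of all genes called lower), without replicate 2 alone mt-Rnr2, mt-Ti and mt-Tq (0.774%), and without replicate 4 as many as 23 genes (1.69%). Calls were also lost without single Trbp-cKO TAC hearts: mt-Ti and mt-Tq were called without replicate 1 (0.373% of all genes), and these 2 and both rRNA genes without replicate 3 (0.529%). A fit of only these 2 groups, in which the sham hearts lend no estimate of the spread, called none of the 37, with 18 at an unadjusted p under 0.05 against 14.6% of all genes. Its median log2 fold change over the 37 genes was -0.75, and its calls over all genes were 84, against 491 in the fit of all 4 groups.

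Both rRNA genes were among the calls. mt-Rnr1 (ENSMUSG00000064337, chrM:70-1024, + strand) stood at 4423, 4722, 5230.2 and 4706 CPM in control sham and 6318, 6934, 7615 and 2945 CPM in control TAC hearts. With Trbp deleted it stood at 4722, 3340.2, 5220.3 and 3941 CPM after sham surgery and 2639, 3121, 3196 and 2605 CPM after TAC. The lowest control TAC heart, replicate 4, lay among the Trbp-cKO TAC hearts, and the highest was replicate 3 and not one of the 2 hearts with the high share. Between Trbp-cKO TAC and control TAC its log2 fold change was -1.04 ± 0.24 (log2 ± SE), with an adjusted p of 0.0220 in edgeR's quasi-likelihood test. mt-Rnr2 (ENSMUSG00000064339, chrM:1094-2675, + strand) stood at 13170.4, 14167, 17713 and 15003 CPM in control sham and 19106, 21207, 17985 and 9463 CPM in control TAC hearts. With Trbp deleted, mt-Rnr2 stood at 11396, 8289.8, 13527 and 10192 CPM after sham surgery and 7225, 8851, 8509 and 8378 CPM after TAC. All 4 Trbp-cKO TAC hearts lay below all control hearts of either surgery, although replicate 4 of control TAC was only a little above the highest of them. Its log2 fold change against control TAC was -1.04 ± 0.23 (log2 ± SE), with an adjusted p of 0.0185 in edgeR's test. As a part of the mitochondrial counts alone, the rRNA genes together held 6.79, 7.25, 8.18 and 7.55% in control sham and 6.30, 6.89, 9.41 and 5.84% in control TAC hearts. The corresponding values were 6.26, 5.27, 7.72 and 6.32% in Trbp-cKO sham hearts and 5.79, 5.86, 6.62 and 4.82% in Trbp-cKO TAC hearts, so on this scale, which does not depend on the share of the chromosome, the 2 TAC groups overlapped.

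The lowest log2 fold changes were those of mt-Ti and mt-Tq, while that of mt-Tm, the next gene along the chromosome, was about level with those of the rRNA genes. The sequences of these 3 tRNA genes are printed above (ENSMUSG00000064342, ENSMUSG00000064343 and ENSMUSG00000064344 for mt-Ti, mt-Tq and mt-Tm). mt-Ti stood at 129, 97.0, 163 and 122 CPM in control sham and 189, 199.6, 102 and 80.6 CPM in control TAC hearts. With Trbp deleted, mt-Ti stood at 88.0, 59.8, 93.7 and 73.6 CPM after sham surgery and 48.8, 65.5, 61.0 and 28.1 CPM after TAC, with no overlap with the control hearts of the same surgery. Its log2 fold change between Trbp-cKO TAC and control TAC was -1.49 ± 0.30 (log2 ± SE), with an adjusted p of 0.0115 in edgeR's quasi-likelihood test. mt-Tq stood at 105, 88.9, 142 and 101 CPM in control sham and 177, 171, 90.8 and 74.3 CPM in control TAC hearts. With Trbp deleted, mt-Tq stood at 77.2, 68.5, 87.6 and 73.5 CPM after sham surgery and 49.8, 69.2, 58.1 and 32.9 CPM after TAC, again without overlap within a surgery. The log2 fold change of mt-Tq after TAC was -1.29 ± 0.27 (log2 ± SE), with an adjusted p of 0.0145 in the same test. mt-Tm stood at 78.7, 90.8, 116 and 80.7 CPM in control sham and 170.3, 173, 98.5 and 65.3 CPM in control TAC hearts. With Trbp deleted, mt-Tm stood at 73.2, 89.8, 82.9 and 77.7 CPM after sham surgery and 56.6, 86.8, 62.1 and 39.9 CPM after TAC, and these values overlapped with those of control hearts of the same surgery. The log2 fold change of mt-Tm after TAC was -1.05 ± 0.28 (log2 ± SE), with an adjusted p of 0.0400 in edgeR's test. In Trbp-cKO TAC replicate 4 all 3 genes were at their lowest of the 16 hearts, although that heart had the highest share of the chromosome within its group.

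Set against mt-Nd1, the complex I gene that ends where mt-Ti begins, the share of the chromosome cancels. mt-Ti had 6.38, 4.70, 6.83 and 5.86 counts per 1000 counts of mt-Nd1 in control sham and 5.54, 5.90, 4.42 and 4.49 in control TAC hearts. With Trbp deleted it had 3.80, 3.08, 4.33 and 3.72 in sham and 3.37, 3.60, 4.21 and 1.45 in TAC hearts, so every Trbp-cKO heart lay below every control heart. The margin was narrow, from 4.33 in the highest Trbp-cKO to 4.42 in the lowest control heart. For mt-Tq the ratio was 5.19, 4.31, 5.97 and 4.87 in control sham and 5.19, 5.04, 3.93 and 4.14 in control TAC hearts. With Trbp deleted, mt-Tq gave 3.34, 3.53, 4.05 and 3.71 in sham and 3.44, 3.80, 4.01 and 1.69 in TAC hearts, and the TAC groups overlapped by 1 heart of either group. For mt-Tm the ratio was 3.89, 4.40, 4.87 and 3.89 in the sham and 5.00, 5.10, 4.26 and 3.64 in the TAC hearts of control mice, and 3.16, 4.63, 3.83 and 3.93 and 3.91, 4.77, 4.28 and 2.05 in those of Trbp-cKO mice, with overlap in either surgery. These ratios were chosen after the values were seen and were not tested, and the separation depends on the neighbor used. Against mt-Nd2, which lies on the other side of the 3 genes, mt-Ti had 10.7, 7.60, 10.7 and 9.57 counts per 1000 in control sham and 7.75, 8.16, 7.25 and 7.61 in control TAC hearts. With Trbp deleted it had 6.69, 4.84, 7.63 and 6.06 in sham and 5.17, 5.29, 5.89 and 2.08 in TAC hearts. On this scale the sham groups overlapped by 1 heart each, and the TAC groups did not overlap. For mt-Tq the ratio to mt-Nd2 was 6.44 to 7.25 in control TAC and 2.43 to 5.62 in Trbp-cKO TAC hearts, without overlap, while the sham groups overlapped. For mt-Tm the groups overlapped on this scale after either surgery.

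**Figure D3:**
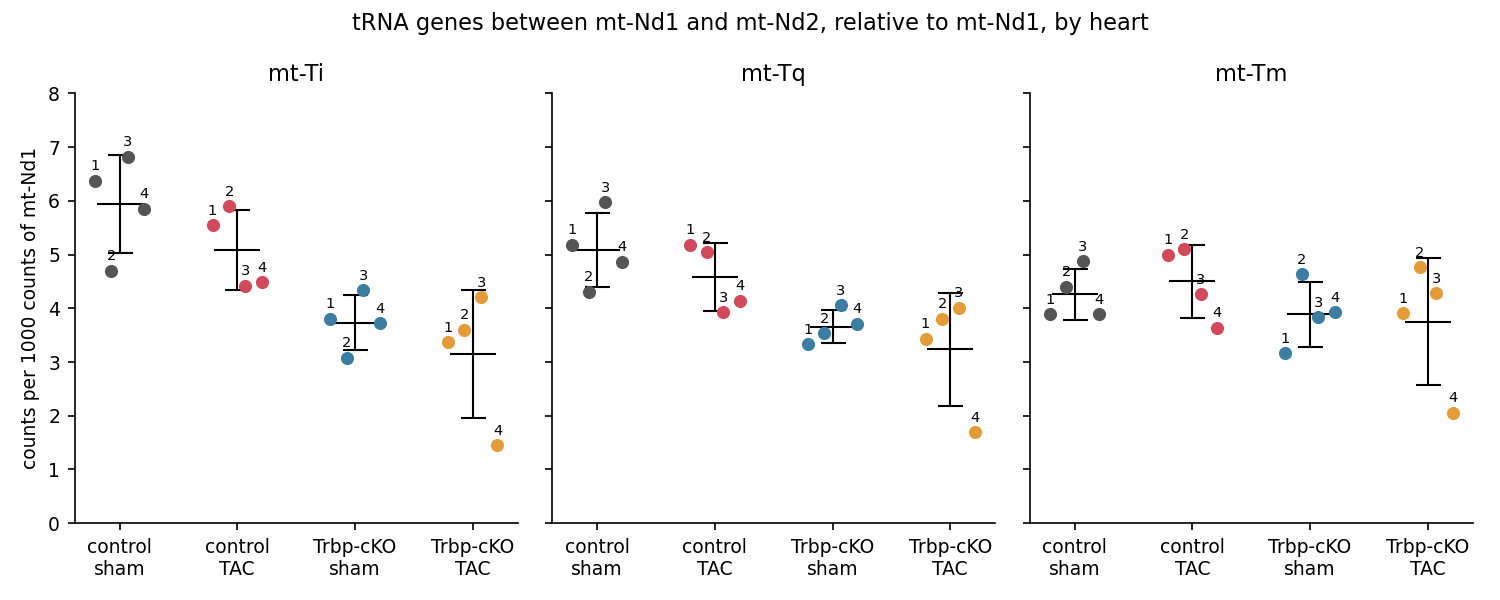
Counts of mt-Ti, mt-Tq and mt-Tm per 1000 counts of mt-Nd1, with 1 point per heart labelled with its replicate number and the mean ± SD of each group of 4 in black. For mt-Ti the 8 Trbp-cKO hearts lie between 1.45 and 4.33, below the 8 control hearts, a separation that was not complete after sham surgery with mt-Nd2 in place of mt-Nd1, and Trbp-cKO TAC replicate 4 is the lowest heart in all 3 panels.

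Of the protein-coding genes 3 were called for the deletion after TAC, all close to the threshold of 0.8. mt-Atp8 (ENSMUSG00000064356, chrM:7766-7969, + strand) stood at 3362, 3574, 3841 and 3494 CPM in control sham and 5869, 5772, 3853 and 2675 CPM in control TAC hearts. With Trbp deleted, mt-Atp8 stood at 2847, 2953, 2888 and 3001 CPM after sham surgery and 2239, 2714, 2397 and 3008 CPM after TAC. Control TAC replicate 4 lay among the Trbp-cKO TAC hearts, and the log2 fold change was -0.81 ± 0.21 (log2 ± SE) with an adjusted p of 0.0358 in edgeR's test. mt-Atp6 (ENSMUSG00000064357, chrM:7927-8607, + strand) stood at 14957, 14528, 15536 and 15119 CPM in control sham and 23794, 23799, 15805 and 12240.2 CPM in control TAC hearts. With Trbp deleted, mt-Atp6 stood at 14235, 12062, 13816 and 12567 CPM after sham surgery and 8912, 11088, 9889 and 12687 CPM after TAC. The TAC groups overlapped by 1 heart each, and the log2 fold change was -0.83 ± 0.21 (log2 ± SE) with an adjusted p of 0.0310 in edgeR's test. mt-Nd3 (ENSMUSG00000064360, chrM:9459-9806, + strand) stood at 1677, 1715, 1812 and 1650.4 CPM in control sham and 3082, 2901, 1975 and 1496 CPM in control TAC hearts. With Trbp deleted, mt-Nd3 stood at 2107, 1644, 2159.5 and 1715 CPM after sham surgery and 1109, 1474, 1196 and 1595 CPM after TAC, with a log2 fold change after TAC of -0.81 ± 0.21 (log2 ± SE) and an adjusted p of 0.0358 in edgeR's test. For mt-Nd3 too the TAC groups overlapped by 1 heart each.

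mt-Co1 was below the thresholds in this comparison, although its groups did not overlap. It stood at 120806, 126053, 81524 and 69251 CPM in control TAC and 57066, 63572, 55259 and 67347 CPM in Trbp-cKO TAC hearts, with a log2 fold change of -0.71 ± 0.20 (log2 ± SE) and an adjusted p of 0.0507 in edgeR's quasi-likelihood test. mt-Co2, mt-Co3 and mt-Nd4 had adjusted p of 0.0318, 0.0246 and 0.0453 with log2 fold changes of -0.78, -0.78 and -0.795, short of 0.8. mt-Nd6, the complex I gene of the opposite strand (chrM:13552-14070), stood at 4552, 4017, 4162 and 3669 CPM in control sham and 7649.8, 6729, 4154 and 3206 CPM in control TAC hearts. With Trbp deleted it stood at 5461, 4296, 4592 and 4186 CPM after sham surgery and 2767, 3920.1, 3228 and 5608 CPM after TAC, where replicate 4 was the highest of its group and replicate 1 the lowest. Its log2 fold change between the TAC groups was -0.49 ± 0.26 (log2 ± SE), with an adjusted p of 0.305 in edgeR's test.

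**Figure D4:**
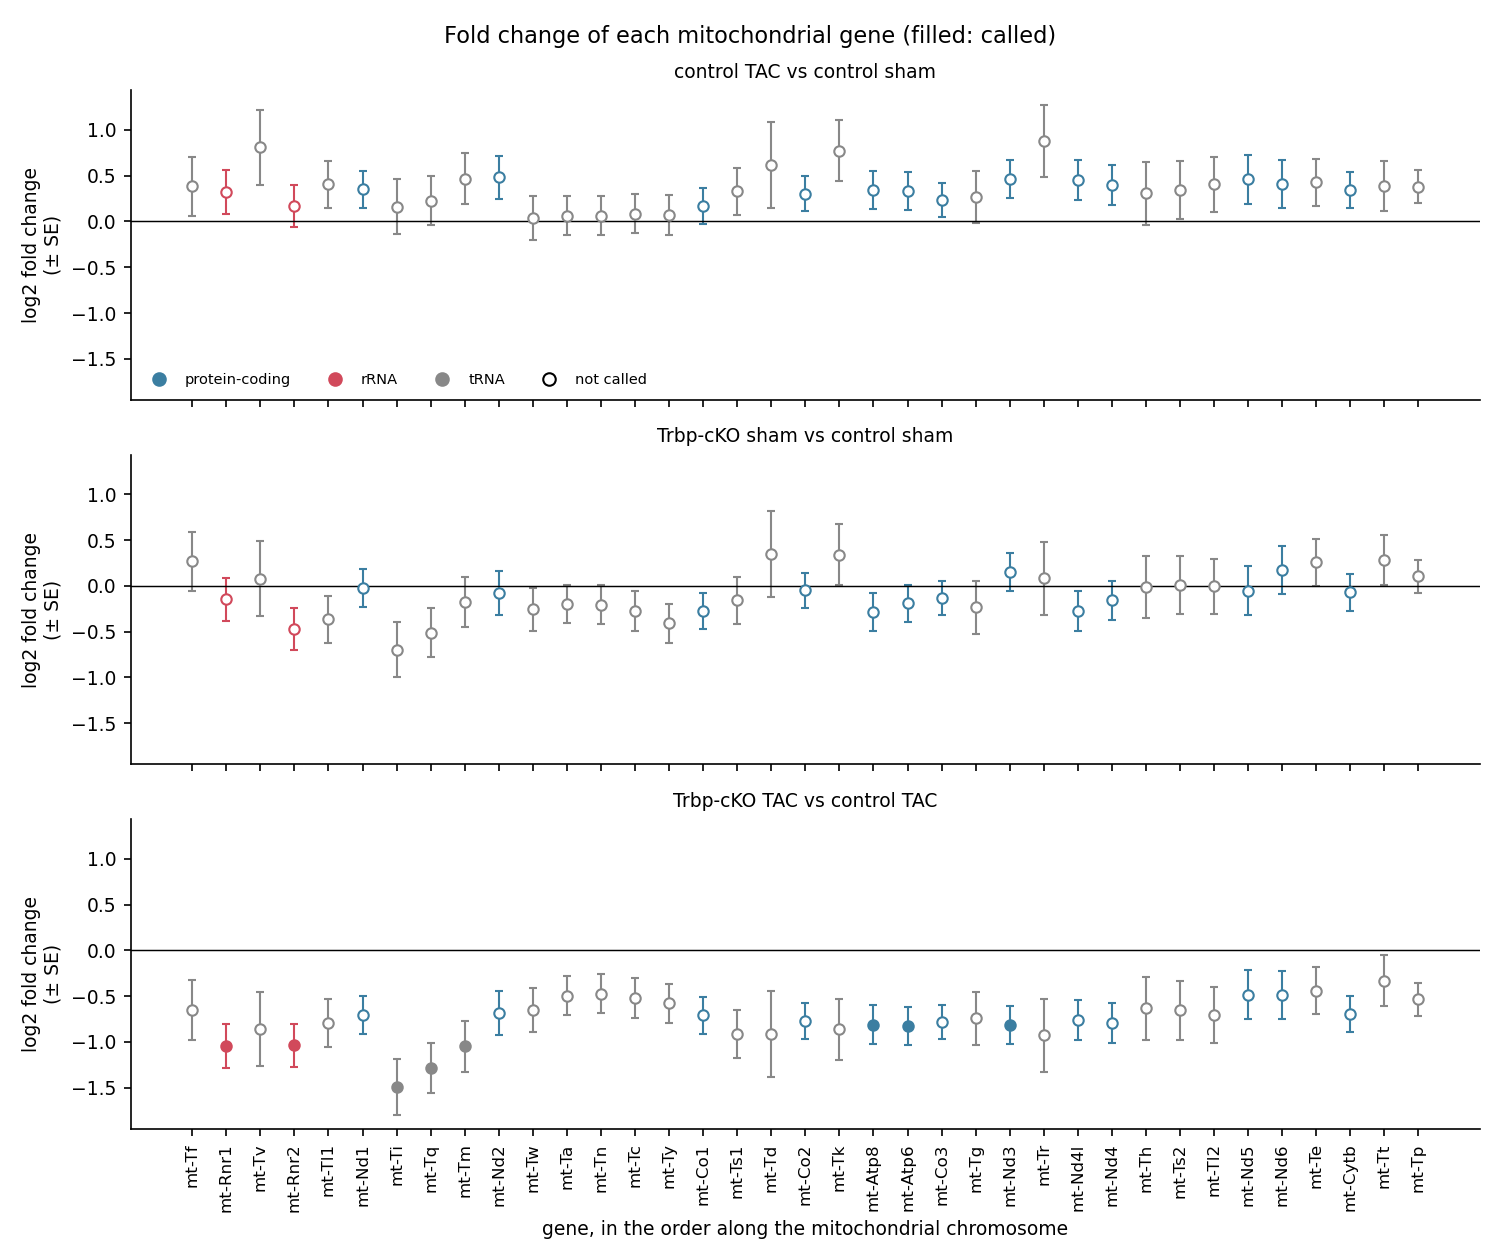
Log2 fold change ± SE of each of the 37 genes, in their order along the chromosome, in 3 comparisons of 4 against 4 hearts, with filled points for genes called and colors for the classes. All 37 points lie above 0 in control TAC against control sham and below 0 in Trbp-cKO TAC against control TAC, where 8 are filled and mt-Ti is lowest at -1.49. These 2 comparisons share the control TAC hearts.

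In the fourth comparison, TAC in Trbp-cKO hearts, 36 of 37 genes lay below 0, from -0.64 to 0.03 with a median of -0.28, beside -0.0016 over all genes. None was called by edgeR, DESeq2 or the exact test, against 5.57% of all genes called in either direction by edgeR, and 4 of 37 had an unadjusted p under 0.05, against 23% of all genes: mt-Nd3, mt-Rnr1, mt-Co3 and mt-Co2. The count was 9 of 37 with edgeR's exact test, against 4290 of 19053 of all genes. Without Trbp-cKO TAC replicate 1 it was 0 of 37, against 4070 of 20365, and the median was -0.17 with 34 genes below 0. For 5 of 37 genes (mt-Rnr1, mt-Co1, mt-Co2, mt-Co3 and mt-Nd3) every Trbp-cKO TAC heart lay below every Trbp-cKO sham heart, against 8.14% of all genes. The difference between the effects of TAC in the 2 genotypes was tested as an interaction. All 37 interaction coefficients lay below 0, from -1.26 to -0.17, and edgeR called none, against 0.872% of all genes, with 10 of 37 at an unadjusted p under 0.05, against 15.4% of all genes. The lowest p was that of mt-Nd3, with a coefficient of -0.97 ± 0.30 (log2 ± SE) and an adjusted p of 0.132. DESeq2 called mt-Nd3 alone, 1 of 37, against 2.75% of all genes. The direction rested on few control TAC hearts here too. Without control TAC replicates 1 and 2, 25 of 37 coefficients lay below 0 and 12 above, with a median of -0.14 in place of -0.64. The count at an unadjusted p under 0.05 was 4 of 37 without replicate 1 (2406 of 20309 of all genes) and 29 of 37 without replicate 4 (4134 of 20370). The interaction test uses the same control TAC hearts as the comparisons of TAC in control hearts and of the deletion after TAC, so their values are no separate evidence.

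Nuclear genes with mitochondrial sequence limit what the counts of some of the 37 genes can show. In 7 of the 13 protein-coding genes (mt-Co1, mt-Co2, mt-Atp6, mt-Co3, mt-Nd3, mt-Nd4l and mt-Nd4) at least 50% of the 31-base words also occur in annotated nuclear genes, and in 23 of the 37 genes none do. The main source is a run of 7 nuclear pseudogenes on chromosome 1 (chr1:24611535-24616197, GRCm38), and 3 more on chromosome 2 and 1 on chromosome 13 share at least 20% of their words. For 5 of these 7 the median over hearts of the ratio of counts, copy to mitochondrial gene, lay between 0.960 and 1.04. Gm28437 had 0.947 to 1.01 times the count of mt-Co3 in the 16 hearts. Gm10925 had 0.967 to 1.02 times that of mt-Atp6 and Gm28438 1.02 to 1.05 times that of mt-Nd3. The ratio was lower for Gm29216 and mt-Co1, at 0.133 to 0.166. How reads that match both places were divided is not given in the sources used here, so the levels of these 7 genes are uncertain. Both the highest and the lowest protein-coding level per length, those of mt-Co1 and mt-Nd3, belong to them. With all 11 copies added, the share of counts was 32.5 ± 0.595% (mean ± SD, n = 4) in the sham and 39.5 ± 11.1% in the TAC hearts of control mice, and 30.99 ± 2.01% and 26.1 ± 3.79% in those of Trbp-cKO mice. Adding each copy to its gene left the 8 calls after TAC as they were, the same 8 genes. The rRNA genes and mt-Ti, mt-Tq and mt-Tm have 0 to 2.71% of such words.

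**Figure D5:**
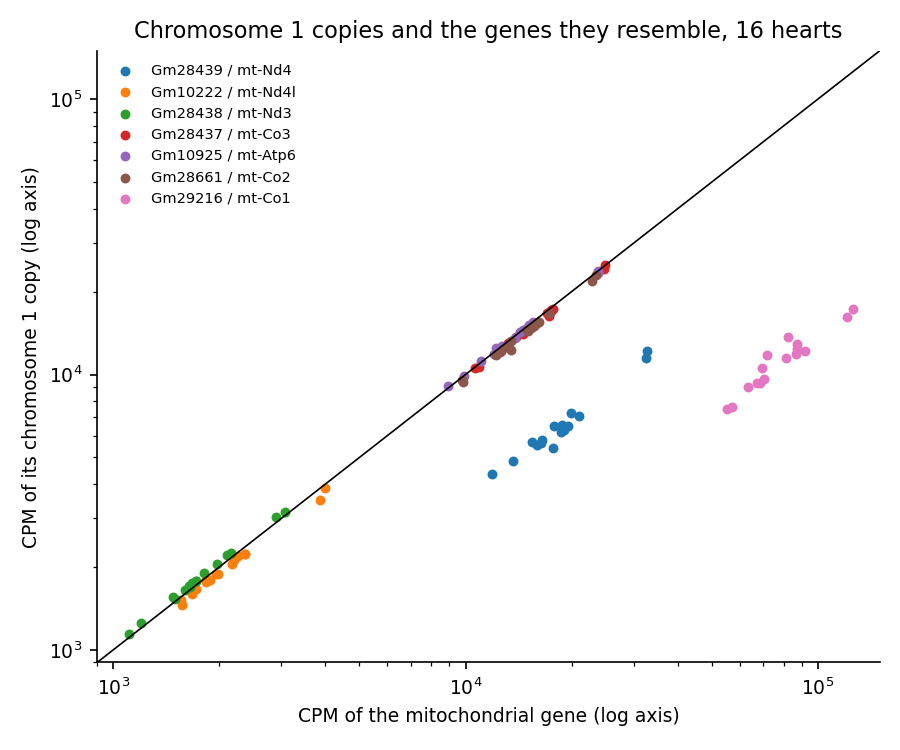
CPM of the 7 chromosome 1 pseudogenes against the CPM of the mitochondrial gene each resembles, on log axes, with 1 point per heart and a line of equal values. For 5 of the 7 pairs the points lie along the line, while those of mt-Nd4 and mt-Co1 lie below it.

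Nuclear genes that act on the chromosome were described from lists. For the deletion after TAC the log2 fold changes had a median of -0.09 over 18 genes of mitochondrial DNA transcription and replication (among them Polrmt, the RNA polymerase, and Tfam, which packs the chromosome), -0.01 over 36 genes of mitochondrial RNA processing and decay and 0.06 over 11 regulators of mitochondrial biogenesis, beside a median of -0.74 over the 37 mitochondrial genes and -0.01 over all genes. None was called in any list, against 491 of 19955 of all genes in either direction. For TAC in control hearts the medians of these lists were -0.21, -0.40 and -0.54, on the other side of 0 from the 0.35 of the mitochondrial genes. None was called there, against 3.75% of all genes in either direction. Control TAC replicates 1 and 2 were also the lowest of their group for these lists. The genes of RNA processing and decay held 0.140, 0.130, 0.175 and 0.185% of nuclear counts in replicates 1 to 4 of control TAC and 0.189 to 0.201% in control sham. The other comparisons and the interaction had no calls in these lists either. Of all genes 0.967% were called for the deletion after sham surgery, 5.57% for TAC in Trbp-cKO hearts and 0.872% for the interaction. The 76 nuclear subunits of the respiratory chain and ATP synthase, which assemble with the 13 mitochondrial proteins, had medians of -0.36 for TAC in control hearts, -0.05 for the deletion after sham surgery, -0.08 for the deletion after TAC and -0.45 for TAC in Trbp-cKO hearts. 1 of the 76 was called in the last of these, Cox7a1, the heart and muscle form of a complex IV subunit, with -0.88 ± 0.17 (log2 ± SE) and an adjusted p of 0.00378 in edgeR's test, and none in the other comparisons. A single call among 76 is a smaller share than the 5.57% of all genes called in that comparison. Without the fold threshold the count differed: 18 of 76 had an adjusted p of at most 0.05 in edgeR's test, against 1983 of 19955 of all genes. All 76 log2 fold changes lay below 0 there.

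Within control TAC the nuclear subunits were lowest in the hearts where the chromosome was highest. Their summed CPM was 21786, 18333, 32875 and 32912 in replicates 1 to 4, lowest in replicates 1 and 2. In control sham it was 38188, 37772, 36776 and 38105. In Trbp-cKO TAC hearts it was 27498, 31379.6, 27329 and 19419, again lowest in the heart with the highest mitochondrial share, replicate 4. Since CPM share a total with the mitochondrial counts, the sum was also taken as a percentage of nuclear counts, where replicates 1 and 2 of control TAC and replicate 4 of Trbp-cKO TAC were again the lowest of their groups: 4.00, 3.45, 4.48 and 4.67% in control TAC, 3.81, 4.22, 3.86 and 3.11% in Trbp-cKO TAC and 5.16 to 5.52% in control sham hearts. Markers of cardiomyocytes, the cells that hold most mitochondria of the heart, had a summed CPM over 8 genes of 26666, 21130.2, 51981 and 52027 in control TAC hearts, or 4.89, 3.98, 7.09 and 7.38% of nuclear counts. The same sum was 52360.2 to 56246 in control sham, 44850 to 55745 in Trbp-cKO sham hearts and 32199.9 to 53069 in Trbp-cKO TAC hearts, with replicate 4 lowest there. The part of cell makeup in the mitochondrial share was not tested.

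Markers of other cell types were summed in the same way. The 8 fibroblast markers summed to 825 to 971 CPM in the sham and 1193 to 2146 in the TAC hearts of control mice, and 1133 to 1381 and 2122 to 3889 in those of Trbp-cKO mice, with 4 of 8 called higher for TAC in control hearts and 3 of 8 for the deletion after TAC. Of all genes 2.5% and 1.55% were called higher in these comparisons. The 6 endothelial markers summed to 1327, 1456, 699 and 659.7 CPM in control TAC replicates 1 to 4, highest in the 2 hearts with the high mitochondrial share, and to 645 to 762 CPM in control sham. The fibroblast, the smooth muscle and pericyte, and the atrial sums were also highest of control TAC in replicates 1 and 2. They stood at 2110 and 2146, 1011 and 913, and 3860 and 3406 CPM there. The macrophage and lymphocyte sum and the erythroid sum did not show this order. In Trbp-cKO hearts the endothelial sum was 606 to 1047 CPM after sham surgery and 581 to 1016 CPM after TAC. Trbp-cKO TAC replicate 4, with the highest mitochondrial share of its group, was highest there for the endothelial (1016), fibroblast (3889) and atrial (15676 CPM) sums. It was not highest for the smooth muscle and pericyte or the erythroid sum. Of 5 smooth muscle and pericyte, 7 macrophage and lymphocyte, and 5 erythroid markers none was at 0 in any heart. For the deletion after TAC 1, 0 and 0 of them were called in either direction, against 491 of 19955 of all genes. The 4 adipocyte markers reached at most 38 counts in a heart and were at 0 in some hearts. Of the 4 atrial markers Sln and Myl7 reached at most 11 and 30 counts, Myl4 had 69 to 459 counts and Nppa, which stressed ventricle also expresses, 30622 to 986480 counts. Myl4 and Nppa were called higher for the deletion after TAC. The part of these cell types in the mitochondrial counts was not tested.

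Genes listed as making RNAs without a poly(A) tail were also described. Whether each RNA of the list lacks a tail was not tested. The 79 listed genes were mostly histone genes, with Malat1 and the 7SL, 7SK and RNase P RNAs among the others. Of them 53 were tested, and 8 were called higher in control TAC than in control sham (of all genes 2.5%). 3 (Rn7s1, Rn7s2 and Rn7sk) were called lower in Trbp-cKO TAC than in control TAC (of all genes 0.912%). The 3 with the smallest adjusted p were Rn7s1 and Rn7s2, near-identical copies of the RNA of the signal recognition particle, and Rpph1, the RNA of RNase P. Rn7s1 stood at 9.27, 8.18, 303 and 4.55 CPM in control TAC hearts and between 2.44 and 6.96 CPM in all others. Rpph1 stood at 0.164, 0.323, 15.5 and 0.123 CPM in control TAC hearts. Rn7s2 and Rn7sk, the latter named after its values were seen, stood at 9.37, 8.21, 301 and 4.49 CPM and at 0.855, 0.721, 53.0 and 0.579 CPM in control TAC hearts. All 4 genes stood apart in replicate 3 alone, the heart that also had the highest mt-Rnr1 and the highest rRNA percentage of mitochondrial counts, and not in the hearts with the high share. The whole list summed to 2589, 2588, 2428 and 1499.6 CPM in control TAC replicates 1 to 4, to 1515 to 1799.5 CPM in control sham, to 1451 to 2028 CPM in Trbp-cKO sham hearts and to 1272 to 1742 CPM in Trbp-cKO TAC hearts. Rn7s1, Rn7s2, Rn7sk and Rpph1 held 9.27, 9.37, 0.855 and 0.164 CPM of this sum in control TAC replicate 1. Most of the sum in that heart thus came from other genes of the list. The sum was not tested as a measure of what escaped the selection, and neither was the part of the list in the mitochondrial counts.

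The make-up of the mitochondrial RNA was described apart from its share of all counts. mt-Co1 held 33.7, 33.3, 32.7 and 33.5% of mitochondrial counts in control and 31.9, 30.97, 29.6 and 31.4% in Trbp-cKO hearts after sham surgery. After TAC mt-Co1 held 30.0, 30.8, 30.0 and 32.6% in control and 33.5, 31.1, 31.2 and 29.6% in Trbp-cKO hearts. The 9 genes of the other strand together held 2.19 ± 0.178% (mean ± SD, n = 4) in the sham and 2.26 ± 0.249% in the TAC hearts of control mice, and 2.63 ± 0.0950% and 2.62 ± 0.399% in those of Trbp-cKO mice. The single genes differed in direction. For the deletion after sham surgery the log2 ratio of mean percentages was 0.34 for mt-Nd6, 0.43 for mt-Te and 0.28 for mt-Tp. It was 0.0006 for mt-Ts1, -0.33 for mt-Tq, -0.23 for mt-Ty, -0.10 for mt-Tc, -0.03 for mt-Tn and -0.02 for mt-Ta.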

How the data were processed

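RNA-seq counts per gene from 16 hearts were analyzed. Per the labels and the study's methods, the authors trimmed paired-end reads with cutadapt (2.3), checked them with FastQC, aligned them to GRCm38 with HISAT2 (2.1.0), assembled transcripts with StringTie (1.3.4) and made the deposited counts with the script supplied with it, which estimates a count from coverage and a set read length, whose setting is not given in the sources used here. The submitters' processing notes give the tool versions.

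Here the counts were tested as deposited with edgeR (4.0.16, R 4.3.3): low genes were removed by filterByExpr, libraries were scaled by TMM, and the quasi-likelihood test was fitted over all 4 groups and 19955 genes, with Benjamini-Hochberg adjustment over all of them. Calls needed an adjusted p no higher than 0.05 and a log2 fold change of 0.8 or more in size. The SE and p printed for a comparison thus use the spread of all 4 groups and not only that of the groups compared. Printed CPM use the TMM-adjusted totals, and shares use the total counts. edgeR's exact test, taken because the study names an exact test, and DESeq2 (1.42.0) were alternatives. The fit was tested on simulated data, with an outcome that is not given here.

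All 37 mitochondrial genes were members. Values in every heart were given for both rRNA genes, the protein-coding and tRNA genes of highest and lowest mean CPM, the 3 highest tRNA genes, mt-Nd6 and genes called. From other lists at most 3 called genes, those of smallest adjusted p, were named. mt-Tv, mt-Td, mt-Tk and mt-Tr in control TAC, and Rn7sk, were chosen after their values were seen. The members and gene lists were chosen with earlier results of these data known. Total counts per heart were 45166994 to 68274222, which limits only counting error. The 4 hearts of a group are biological replicates per the labels.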

Additional observations from a re-analysis of the deposited data

Results flagged for a closer look

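Of 64 groups of 4 hearts over 16 measures, 2 held a heart whose gap to its neighbor, divided by the range of the group, was above Dixon's critical value for a group of this size. Chance gives this in about 1 of 20 groups. Both were in control sham replicate 3. For mt-Co1 this heart stood at 91880.5 CPM, with a gap of 0.832 of the range, although the 4 hearts differ little. For mt-Tl1, the leucine tRNA gene next to mt-Rnr2, it stood at 301.4 CPM, with a gap of 0.970 of the range.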

How the results depend on the processing

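The differences in the share of counts kept their sign under every alternative tried for them, with 1 exception: between control TAC and control sham the difference of 5.50 percentage points became -2.0 without control TAC replicates 1 and 2. Between Trbp-cKO TAC and control TAC it ranged from -13.5 to -2.86. Calls of mitochondrial genes for the deletion after TAC, 8 in the fit as reported, were less stable. The count was 5 with scaling by library size only, which moved the median log2 fold change of all genes from -0.01 to 0.13, 5 at a fold threshold of 1, 5 without a filter, 4 with edgeR's exact test and 0 in a fit of only the 2 groups (18 at an unadjusted p under 0.05). It was 8 with DESeq2 and with only rows that have a gene symbol, 10 with library sizes and TMM from nuclear genes, 10 with counts divided by 2, 11 without a fold threshold and 12 with a filter of 1 CPM in 4 hearts. Of all genes, 182 of 19955 were called lower in the fit as reported. In the order of the settings that gave 5 to 0, this was 126 of 19955, 119 of 19955, 111 of 37067, 153 of 18859 and 17 of 18859. In the order of those that gave 8 to 12, it was 326 of 19955, 182 of 19949, 196 of 19955, 183 of 17950, 329 of 19955 and 169 of 15071. Leaving out 1 heart gave 1 to 23 calls among the mitochondrial genes. The count was 1 without control TAC replicate 1 (90 of 20309 of all genes called lower), 3 without replicate 2 (157 of 20284), 13 without replicate 3 (224 of 20244) and 23 without replicate 4 (344 of 20370). It was 2, 4 and 13 without Trbp-cKO TAC replicates 1, 3 and 4 (76 of 20365, 107 of 20220 and 230 of 20300 of all genes). It was 5 without control sham replicate 4 or Trbp-cKO sham replicate 4 (140 of 20389 and 131 of 20373). Without control TAC replicates 1 and 2, chosen after seeing the data, it was 0 (10 at an unadjusted p under 0.05), while over all genes 540 of 20821 were called in either direction, against 491 of 19955 in the fit as reported. Adding the nuclear copies, also chosen after seeing the data, gave 8 (177 of 19944 of all genes called lower). Of 31 settings mt-Ti was called in 29, mt-Tq in 28, mt-Rnr1 and mt-Rnr2 in 26 each, mt-Atp6 in 20, mt-Tm and mt-Nd3 in 17 each and mt-Atp8 in 14, and none changed sign. For TAC in control hearts leaving out 1 heart gave 0 to 3 calls. For the interaction it gave 0 to 3, the 3 without control TAC replicate 4 (397 of 20370 of all genes called in either direction), and DESeq2 gave 1. The other comparisons had 0 calls under every alternative. Some settings leave fewer hearts or genes, and the cause of the changes in these counts was not tested.

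With a replicate block the count for the deletion after TAC was 4 in place of 8, while over all genes 78 of 19955 were called lower in place of 182. The deviations of hearts with the same number correlated between -0.43 and 0.21 over 16 pairs of hearts, above 0.1 in 3, so the numbers were not taken to pair hearts.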
